A study of Mus musculus with 6 samples.

Results

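The potassium channel genes were the genes whose symbol begins with Kcn followed by lower case letters or digits, taken from rows of the table that the platform annotation gives exactly 1 symbol. There were 92 such genes among the 19938 genes measured. Their levels were read on 6 Affymetrix arrays of primary mixed neuron-glial cultures from the brain of OF1 mouse embryos at E17, differentiated in the presence of fetal calf serum. The 1,25D group (3 arrays) received 1,25-dihydroxyvitamin D3, the hormonal form of vitamin D, at 10 nM in serum-free medium without growth factors. The control group (3 arrays) received vehicle in the same medium according to the treatment protocol, although its treatment label reads as not treated. Both groups thus shared strain, stage, serum differentiation and the later serum-free medium. The series asked which genes the hormone induces in such cultures. The cultures are mixed, so in every result below a change in the number of cells of a type and a change in RNA per cell cannot be told apart.

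Potassium channels let potassium leave or enter the cell and so set the resting potential, shape action potentials and, in astrocytes, help clear potassium released by active neurons. The voltage-gated subunits (Kcna to Kcnd, Kcnh, Kcnq) open on depolarisation, the calcium-activated subunits (Kcnn, Kcnma1) open when intracellular calcium rises, the inward rectifiers (Kcnj) hold the membrane near the potassium equilibrium, and the 2-pore-domain subunits (Kcnk) carry background current. The auxiliary subunits (Kcnab, Kcne, Kcnip, Kcnmb) form no pore and change the gating or trafficking of the others.

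None of the 92 genes passed as higher or lower in 1,25D cultures in limma's moderated test with Benjamini-Hochberg adjustment over all genes (adjusted p under 0.05). Of all genes tested, 0.0251% passed, all of them higher. With the replicate number as a block, again 0 of 92 passed, against 0.0903% of all genes. At an unadjusted p under 0.05 there were 3 of the 92 without the block (3.26%, against 1.48% of all genes), 3 of them higher (against 0.953% of all genes) and 0 lower (against 0.527%). With the block there were 9 (9.78%, against 5.78% of all genes), 6 of them higher (against 3.16%) and 3 lower (against 2.61%). The first 3 were Kcna1, Kcne4 and Kcnc4, and the 9 also held Kcna5, Kcnd2, Kcnd3, Kcnip3, Kcnk1 and Kcnmb1. The median log2 difference, 1,25D minus control, was 0.01 over the 92 genes and 0.01 over all genes, and 50 of the 92 lay above 0 (54.3%, against 53.0% of all genes). The single gene with a mean at least 1.5-fold apart was Kcnk1 (1.09% of the 92, against 0.492% of all genes). Without the block, the 95% interval of the difference lay within 1.5-fold of no change for 73 of the 92 genes, and the other 19 have intervals that reach further. With the block this held for 83. These intervals are per gene, with no adjustment for the number of genes.

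**Figure D1:**
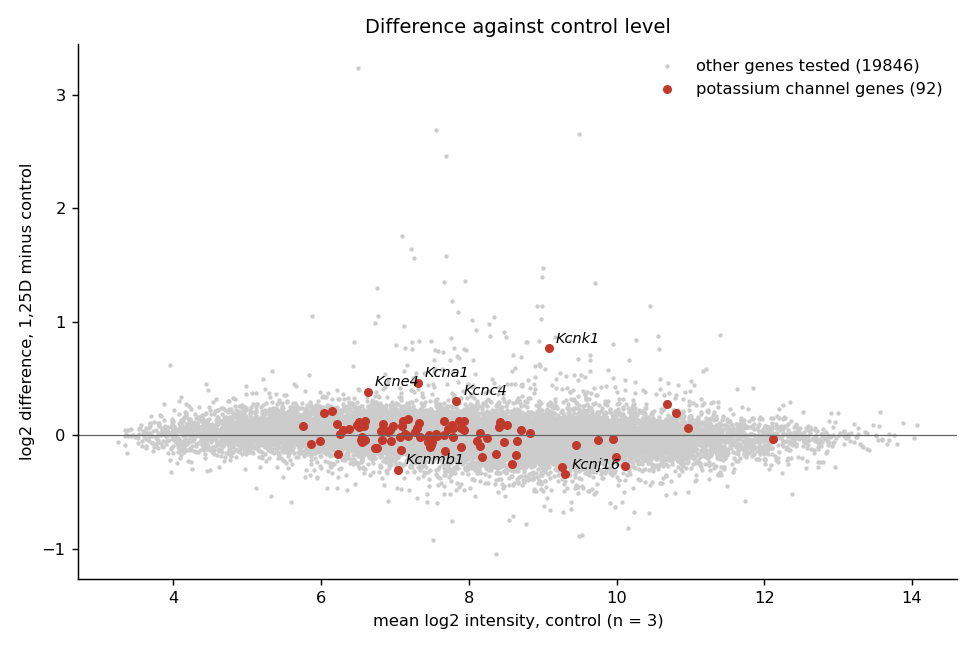
Log2 difference, 1,25D minus control (y axis), against the mean log2 intensity of the 3 control arrays (x axis) for the 92 potassium channel genes (red) and the other genes tested (grey). The channel genes lie between -0.34 (Kcnj16) and 0.77 (Kcnk1), and genes more than 0.3 from 0 are named.

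The label of the cultures was checked against marker lists. Of 7 astrocyte markers 5 had a control mean above the upper quartile of all genes, such as Slc1a3 at 12.53 ± 0.27 in 1,25D cultures and 12.54 ± 0.35 in control cultures (log2 intensity, SD, n = 3 each). Of 11 neuron markers 1, Map2, lay above that quartile and 2, Nefm and Slc17a6, below the lower one, and their median control level of 8.15 was near the 7.95 of all genes. RMA gives no detection call and no value at 0, so no marker can be called absent. Over the 9 lists 0 of 56 measured markers passed in either direction in either fit (against 0.0251% of all genes without and 0.0903% with the block). At an unadjusted p under 0.05 there were 2 of the 56 without and 7 of the 56 with the block. Both shares were above those of all genes, 1.48% and 5.78%, and were not tested. The list medians lay between -0.10 and 0.07. Equal replicate numbers resembled each other beyond their group, and both replicate 1 arrays held identical values for 1094 genes (5.49% of all genes). Among the channel genes 6 had identical values there (6.52%), namely Kcnab1, Kcne1, Kcnj8, Kcnk7, Kcnmb4os1 and Kcnt2. Their replicate 1 difference is exactly 0. No other pair of arrays shared the value of any of the 92 genes.

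Few of the channel genes were among the brightest genes. Their median control level was 7.46 on the log2 scale, against 7.95 over all genes. Of the 92, 10 (10.9%) lay above the upper quartile of all genes (9.28) and 22 (23.9%) below the lower quartile (6.78), against 25.0% of all genes beyond each. An intensity depends on the probes of each gene as well as on its transcript, so the order that follows is one of intensities and was not tested. Kcnj10, the inward rectifier of astrocytes, ranked first in control cultures and stood above 98.9% of all genes. It was followed by Kcnma1, the pore of large-conductance calcium-activated channels, Kcnk2, a mechanosensitive 2-pore-domain channel, Kcnd3, a pore of A-type channels, and Kcnip3, a calcium-binding protein of the same channel complexes. Kcnn3, Kcna2, Kcnh5, Kcna6 and Kcnj16 completed the first 10. The places of Kcnma1 and Kcna2 rest on the brighter of their 2 rows. Their control means were 10.96 and 9.95 in the rows used and 7.35 and 8.38 in the others. The lowest control means were those of Kcnt2 (5.75), Kcne3 (5.87), Kcnj6 (5.99), Kcns2 (6.04) and Kcna5 (6.15), where RMA compresses differences.

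**Figure D2:**
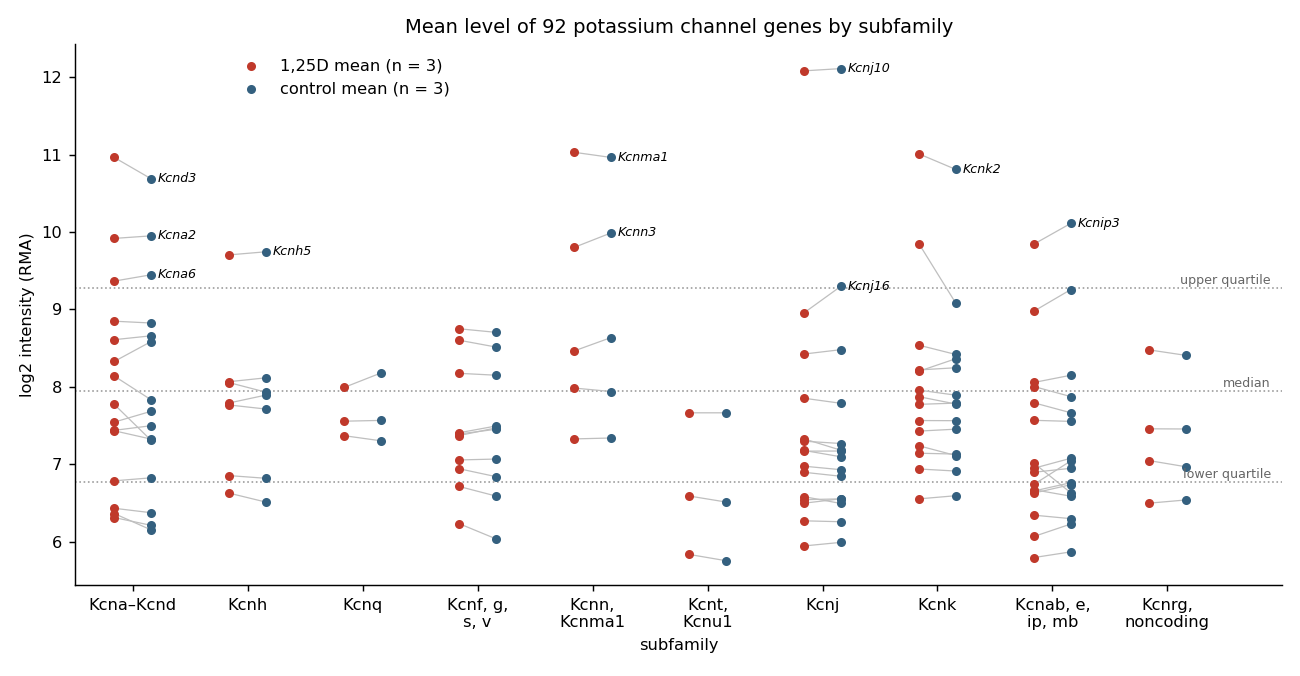
Mean log2 intensity of each of the 92 genes in 1,25D cultures (red, left) and control cultures (blue, right), joined by a line, by subfamily (x axis). Dotted lines give the quartiles of the control means over all genes, and the 10 genes with the highest control mean are named, from Kcnj16 at 9.30 to Kcnj10 at 12.11.

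The upstream sequences of Kcnk1 and Kcne4 are shown because they had, among genes with an entry in the RefSeq promoter table, the smallest p with and without the block. They are the 250 bases before the start in build GRCm38.p6, both on the plus strand, for Kcnk1 chr8:125994852-125995101 and for Kcne4 chr1:78816661-78816910. Capitals mark the hexamers of the vitamin D receptor half-site, searched as AGGTCA or as GGGTCA, or as AGTTCA or else as GGTTCA, on both strands.
Kcnk1: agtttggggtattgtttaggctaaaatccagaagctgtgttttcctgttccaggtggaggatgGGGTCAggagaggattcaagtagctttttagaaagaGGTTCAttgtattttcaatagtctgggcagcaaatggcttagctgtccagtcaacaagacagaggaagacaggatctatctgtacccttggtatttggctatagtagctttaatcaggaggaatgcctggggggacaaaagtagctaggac
Kcne4: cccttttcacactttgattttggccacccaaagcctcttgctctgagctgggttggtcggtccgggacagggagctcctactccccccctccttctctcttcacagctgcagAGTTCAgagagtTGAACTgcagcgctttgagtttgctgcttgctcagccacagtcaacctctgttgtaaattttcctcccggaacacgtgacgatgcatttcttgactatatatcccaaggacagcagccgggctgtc
Each window held 2 half-sites. In Kcnk1 both lay on the plus strand, from 187 to 182 and from 151 to 146 bases before the start. In Kcne4 they lay on opposite strands, from 138 to 133 and from 126 to 121 bases before it. A half-site was found in 38.6% of all 32851 windows and in 36.8% of the 95 windows of the 70 channel genes with an entry. Neither window held a direct repeat of 2 half-sites with 3 bases between them, which 0.0396% of all windows held. A match describes letters and shows no binding.

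Among the 15 voltage-gated pore genes from Kcna to Kcnd, 0 passed in either direction, 8 had a higher and 7 a lower mean in 1,25D cultures, and the median difference was 0.02. Kcna1, a delayed-rectifier subunit of axons, had log2 intensities of 7.86, 7.89 and 7.57 in 1,25D replicates 1, 2 and 3, against 7.49, 7.36 and 7.08 in control replicates 1, 2 and 3. All 3 1,25D arrays lay above all 3 control arrays. The difference was 0.46 ± 0.14 (SE, a 1.38-fold higher mean, adjusted p = 1.00 in limma without the block and 0.23 with it). By replicate number it was 0.38, 0.53 and 0.49.

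Kcnc4, a fast-inactivating subunit, was at 8.15, 8.34 and 7.93 in 1,25D cultures and at 7.94, 7.69 and 7.87 in control cultures. The groups overlapped by 1,25D replicate 3, and the difference of 0.31 ± 0.13 (SE) came mainly from replicate 2 (0.65, against 0.21 and 0.06 in replicates 1 and 3). Without replicate 2 in the blocked fit it was 0.14.

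Kcnd3 and Kcnd2, pores of the somatodendritic A-type current, had differences of opposite sign. Kcnd3 was at 10.79, 11.18 and 10.92 in 1,25D cultures and at 10.53, 11.00 and 10.55 in control cultures. Its differences were 0.27, 0.18 and 0.38, with a mean of 0.27 ± 0.16 (SE, adjusted p = 1.00 without and 0.68 with the block). Kcnd2 was at 8.03, 8.23 and 8.72 in 1,25D cultures and at 8.14, 8.61 and 9.01 in control cultures. Its differences were -0.11, -0.37 and -0.29, with a mean of -0.26 ± 0.25 (SE, adjusted p = 1.00 without and 0.75 with the block). In both genes the 1,25D array lay on the same side of its control in all 3 replicate numbers, while the groups overlapped. The difference between the 2 genes was not tested. The antisense transcript Kcnd3os had a difference of 0.07 ± 0.15 (SE).

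Kcna2, Kcna6, Kcna3 and Kcnc1 had mean differences smaller than their SE. Kcna2, an axonal subunit, was at 9.92 ± 0.53 in 1,25D cultures and 9.95 ± 0.40 in control cultures (SD, n = 3 each), and its second row, not used, had a difference of 0.01. Kcna6 was at 9.37 ± 0.51 in 1,25D cultures and 9.45 ± 0.16 in control cultures, with replicate differences of -0.38, 0.44 and -0.31. Kcna3, known from microglia and lymphocytes, had a difference of 0.02 ± 0.09 and Kcnc1, a subunit of fast-spiking neurons, of -0.05 ± 0.18 (SE). Kcnd1 and Kcnb2 had groups that did not overlap, with differences of -0.14 ± 0.09 and 0.10 ± 0.09 (SE). These 2 were near the size of the SE. Kcna5 was dim and had differences of 0.31, 0.15 and 0.18.

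The Kcnh and Kcnq genes, 7 and 3 in number, had median differences of 0.03 and -0.01, and 0 passed. Kcnh5, an ether-à-go-go channel, was at 8.89, 9.99 and 10.24 in 1,25D cultures and at 9.43, 9.86 and 9.95 in control cultures, so that its replicate differences were -0.54, 0.13 and 0.29. Kcnh4 had the largest difference of the Kcnh genes, 0.12 ± 0.14 (SE). Kcnq5, a subunit of the M current, was at 7.99 ± 0.10 in 1,25D cultures and 8.18 ± 0.19 in control cultures (SD, n = 3 each). It was lower in all 3 replicate numbers, by a mean difference of -0.19 ± 0.12 (SE), and Kcnq3, its partner in that current, had -0.01 ± 0.11 (SE). Of the 10 electrically silent modifier genes, 6 lay above 0 and the median was 0.04. Kcns2 had the largest difference there, 0.20 ± 0.17, while Kcng1 and Kcns3, the brightest of their subfamilies, had 0.05 ± 0.13 and 0.02 ± 0.09 (SE). Kcnf1 had -0.09 ± 0.14, Kcng3 0.10 ± 0.11, Kcnv1 0.12 ± 0.14 and Kcnv2 -0.01 ± 0.10 (SE).

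The 5 calcium-activated pore genes had a median difference of -0.01, and 0 passed. Kcnma1 was at 10.96, 10.83 and 11.31 in 1,25D cultures and at 11.19, 10.70 and 11.01 in control cultures, a difference of 0.07 ± 0.17 (SE). Its second row was far dimmer (control mean 7.35) and had a difference of 0.05. Kcnn3, a small-conductance channel that sets the after-hyperpolarisation, was at 9.37, 10.24 and 9.80 in 1,25D cultures and at 10.36, 10.17 and 9.44 in control cultures. Its differences were -0.99, 0.07 and 0.36 in replicates 1, 2 and 3. Kcnn2, of the same subfamily, differed by 0.29, 0.28 and -1.09, and control replicate 3 was its highest array, at 9.27. Kcnn4, the intermediate-conductance channel known from microglia, had a difference of -0.01 ± 0.13 (SE). The sodium-activated genes Kcnt1 and Kcnt2 and the pH-sensitive Kcnu1 of sperm had differences of 0.00 ± 0.10, 0.08 ± 0.10 and 0.08 ± 0.11 (SE).

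Among the 15 inward rectifiers 0 passed, 8 lay above 0, and the median difference was 0.01. Kcnj10, the brightest channel gene, was at 11.79, 12.32 and 12.15 in 1,25D cultures and at 11.91, 12.50 and 11.93 in control cultures. The groups overlapped, and the difference was -0.03 ± 0.20 (SE, 95% interval -0.49 to 0.43 without the block and -0.27 to 0.21 with it). The 7 astrocyte markers beside it all had lower means in 1,25D cultures, with a median of -0.08, and 0 passed. Their summed intensity lay between 14647 and 22518 in 1,25D cultures and between 14146 and 22580 in control cultures. Their part in the value of Kcnj10 was not tested.

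Kcnj16, which joins Kcnj10 in glial and epithelial channels, had the widest range of all 92 genes, 2.24 on the log2 scale over the 6 arrays. It was at 7.96, 9.74 and 9.17 in 1,25D cultures and at 9.49, 10.20 and 8.20 in control cultures. Its differences were -1.54, -0.46 and 0.97 in replicates 1, 2 and 3, and the mean was -0.34 ± 0.57 (SE, 95% interval -1.68 to 0.99). Kcnj13, an epithelial rectifier of the choroid plexus, and Kcne1l, an auxiliary subunit of the Kcne family, had differences of the same signs in each replicate number. Kcnj13 was chosen after its values were seen. Kcnj13 was at 7.75, 8.32 and 9.20 in 1,25D cultures and at 8.42, 8.46 and 8.56 in control cultures, with differences of -0.67, -0.14 and 0.64. Kcne1l was at 8.08, 9.31 and 9.55 in 1,25D cultures and at 8.99, 9.65 and 9.13 in control cultures, with differences of -0.91, -0.34 and 0.42. Differences over 0.5 in both directions were seen in 2 of the 92, Kcnj16 and Kcnj13 (2.17%, against 0.752% of all genes).

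Most markers of ciliated ependymal cells moved between arrays too, while Tmem212 had differences of 0.12, -0.02 and 0.12. The 5 ependymal markers had median differences of -0.38, -0.19 and 0.28 in replicates 1, 2 and 3, and their summed intensity lay between 2009 and 2541 in 1,25D cultures and between 1589 and 3121 in control cultures. Foxj1, their defining transcription factor, was at 10.23, 10.48 and 10.00 in 1,25D cultures and at 10.61, 10.60 and 9.73 in control cultures. The 7 measured choroid plexus genes, a list added after the values were seen, had median differences of -0.07, -0.03 and 0.14. Its genes differed among themselves. Ttr had differences of -0.25, -0.21 and 0.75, Folr1 of -0.60, -0.07 and 0.65 and Clic6 of -0.13, -0.02 and 0.21. By contrast, Aqp1 had -0.01, 0.22 and 0.14 and Kl 0.03, 0.10 and -0.01. Otx2 and Slc4a5 were lower in all 3 replicate numbers. That list's summed intensity lay between 3316 and 3923 in 1,25D cultures and between 2931 and 4354 in control cultures. The signs of Kcnj16 were not particular to these lists. Kdr, an endothelial marker, had differences of -0.97, -0.01 and 0.49, and Nes, a progenitor marker, of -0.84, -0.04 and 0.62. Cdh5 and Sox2 of the same endothelial and progenitor lists had other signs. The part of any of these cell types in the values of Kcnj16, Kcnj13 and Kcne1l was not tested.

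**Figure D3:**
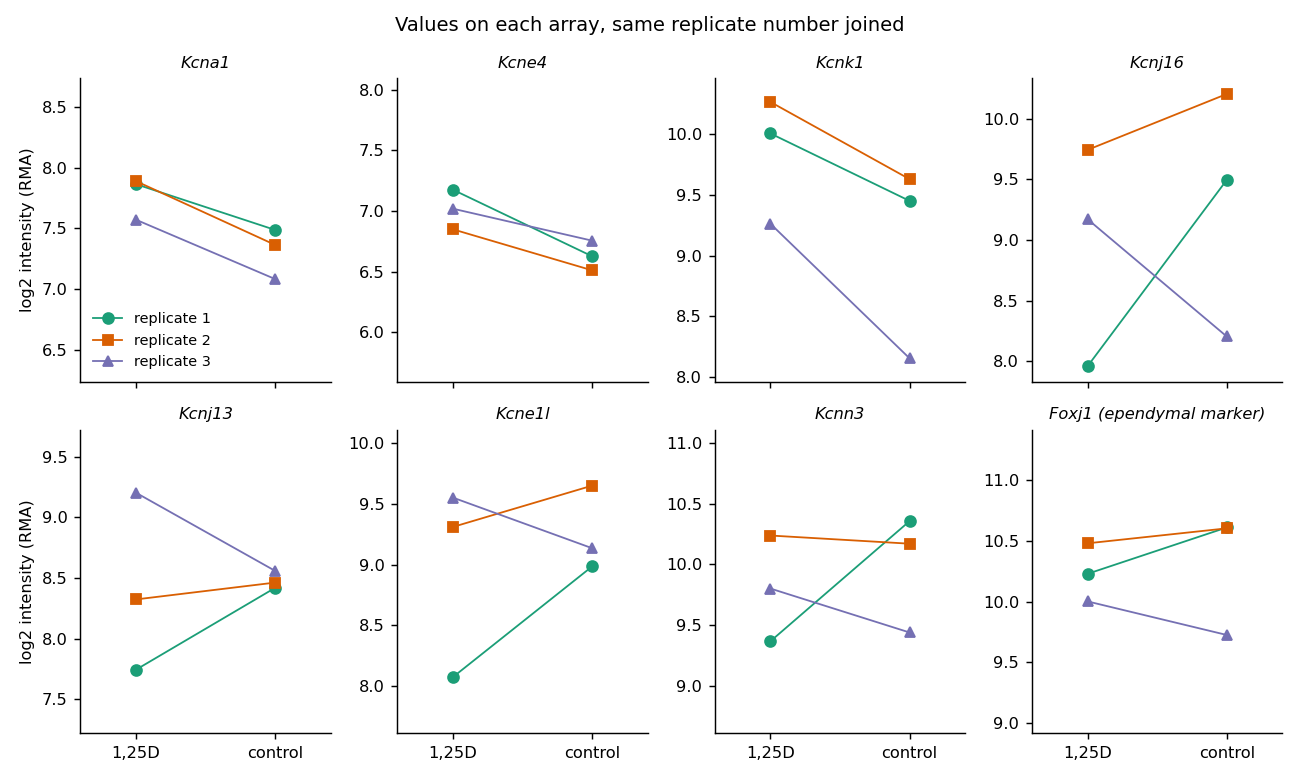
Log2 intensity on each array for 7 channel genes and the ependymal marker Foxj1, 1,25D arrays left and control arrays right, lines joining equal replicate numbers, every panel spanning the same height. The 3 lines of Kcna1, Kcne4 and Kcnk1 all lie higher at 1,25D. Those of Kcnj16, Kcnj13 and Kcne1l do so in replicate 3 only, with differences from -1.54 to 0.97 in Kcnj16.

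Kcnj3 and Kcnj6, subunits of G protein-gated channels of neurons, had differences of 0.00 ± 0.24 and -0.05 ± 0.11 (SE). Kcnj3 nevertheless varied with the replicate number, at 7.07, 7.59 and 6.85 in 1,25D cultures and 7.10, 7.58 and 6.83 in control cultures. Kcnj8, a pore of ATP-sensitive channels in pericytes and smooth muscle, had 0.15 ± 0.11 (SE), of which 0.40 was in replicate 2 and exactly 0 in replicate 1, where both arrays hold the same value. Kcnj14 had its highest array in 1,25D replicate 1 (7.25) and its lowest in 1,25D replicate 2 (6.04).

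Of the 14 2-pore-domain genes, 0 passed, 9 lay above 0 and the median was 0.02. Kcnk1, a weakly conducting leak channel found in neurons and astrocytes, had the largest difference of all 92 genes. It was at 10.01, 10.27 and 9.26 in 1,25D cultures, against 9.45, 9.63 and 8.15 in control cultures. Each 1,25D array was above the control of its number, by 0.56, 0.64 and 1.11, but 1,25D replicate 3 lay below control replicates 1 and 2, so the groups overlapped. The mean was 1.70-fold higher, a difference of 0.77 ± 0.41 (SE, adjusted p = 1.00 in limma without the block). With the block the SE was 0.12 and the adjusted p was 0.20, the lowest of the 92 genes. Over all 19 alternatives the difference stayed above 0, from 0.30 without control replicate 3, its lowest array, to 1.06 without 1,25D replicate 3. Its adjusted p was under 0.05 in 1 of them, the blocked fit without replicate 1 (0.033, from 2 pairs), and between 0.080 and 1.00 in the others.

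Kcnk2, the brightest of this subfamily, was at 10.83, 11.11 and 11.09 in 1,25D cultures and at 10.79, 10.91 and 10.73 in control cultures. It was higher in all 3 replicate numbers, by 0.04, 0.21 and 0.36, with a mean of 0.20 ± 0.11 (SE, adjusted p = 1.00 without and 0.87 with the block). Kcnk10, its close relative, had a difference of -0.16 ± 0.15 (SE), of which -0.57 was in replicate 1. The other 11 genes of the subfamily had differences between -0.04 and 0.13.

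The 16 auxiliary genes had 6 members above 0 and 10 below it, a median of -0.08, and 0 passed. Kcne4, which inhibits several voltage-gated channels, was at 7.17, 6.85 and 7.02 in 1,25D cultures and at 6.63, 6.51 and 6.75 in control cultures. The groups did not overlap, and the difference was 0.38 ± 0.12 (SE, a 1.30-fold higher mean, adjusted p = 1.00 in limma without the block and 0.49 with it). The gene was dim, with a control mean below the lower quartile of all genes. Kcnmb1, the auxiliary subunit of large-conductance channels in smooth muscle, was at 6.98, 6.52 and 6.73 in 1,25D cultures and at 7.19, 7.04 and 6.91 in control cultures. It was lower in all 3 replicate numbers, by differences of -0.21, -0.52 and -0.18, with a mean of -0.30 ± 0.14 (SE, adjusted p = 1.00 without and 0.72 with the block). Of 5 pericyte and smooth muscle markers 3 had higher and 2 lower means in 1,25D cultures, and the list's median difference was 0.02. Pdgfrb, a pericyte receptor, had differences of 0.47, 0.39 and 0.60 (adjusted p = 1.00 in limma without the block and 0.23 with it). Rgs5, the other pericyte marker, had a mean difference of 0.02. Of the smooth muscle genes, Acta2 and Tagln had mean differences of -0.20 and -0.23, while Myh11 had 0.07. Acta2 and Tagln, the brightest of the 5, gave the most to the summed intensity of these markers. That sum lay between 6936 and 8575 in 1,25D cultures and between 8291 and 9334 in control cultures. The part of these 5 markers in the value of Kcnmb1 was not tested. Kcnmb4, the form found in neurons, had 0.01 ± 0.16 and Kcnmb3 0.13 ± 0.12 (SE).

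Kcnip3 was at 9.75, 9.60 and 10.19 in 1,25D cultures and at 9.87, 10.13 and 10.34 in control cultures, lower in all 3 replicate numbers with a mean difference of -0.27 ± 0.18 (SE, adjusted p = 1.00 without and 0.86 with the block). Kcnip4 had -0.16 ± 0.10 and Kcnip1 -0.11 ± 0.11 (SE). Of the subunits that bind the cytoplasmic side of Kcna channels, Kcnab1 had 0.13 ± 0.10, Kcnab2 -0.09 ± 0.16 and Kcnab3 0.08 ± 0.09 (SE). The remaining Kcnrg and noncoding Kcnmb4os2 had -0.04 ± 0.11 and 0.08 ± 0.20 (SE).

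**Figure D4:**
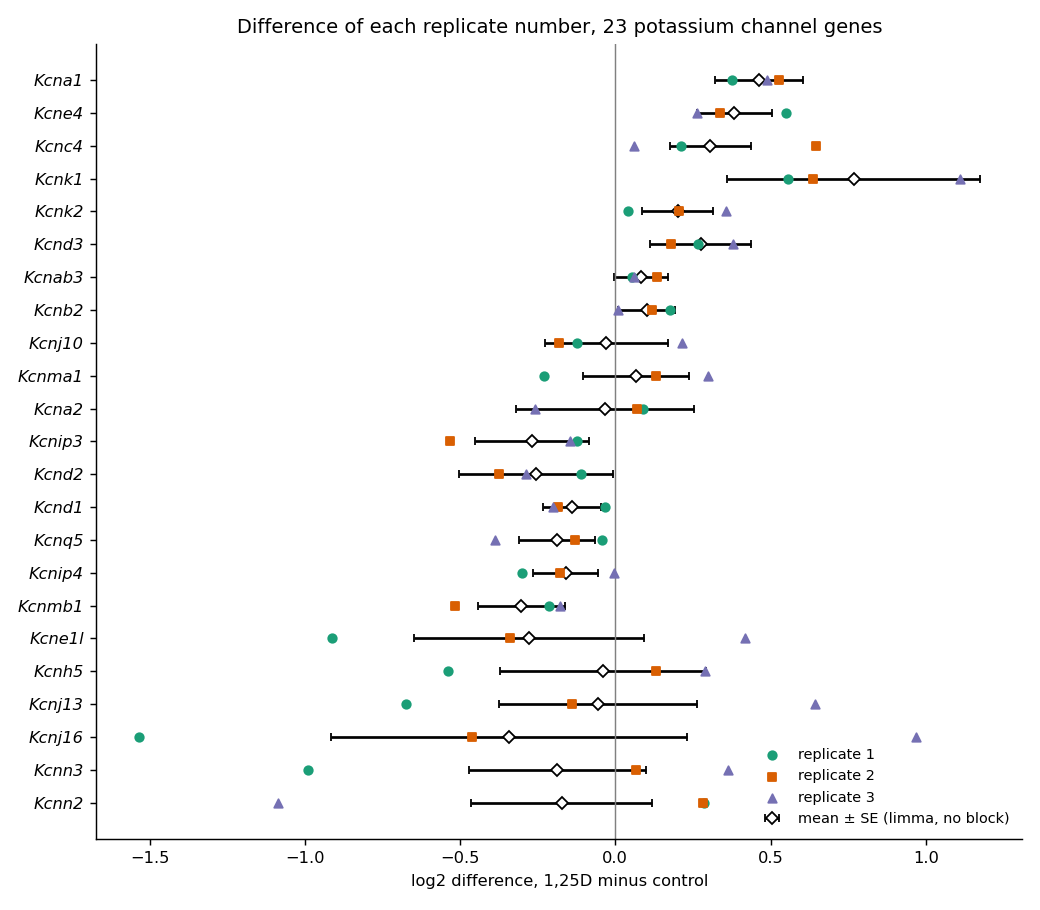
Log2 difference, 1,25D minus control, of replicates 1, 2 and 3 (coloured points) with the mean and its limma SE without the block (diamonds and bars) for 23 channel genes. The differences of Kcna1, from 0.38 to 0.53, lie close together, those of Kcnk1 all lie above 0, and those of Kcnj16 span -1.54 to 0.97.

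The groups did not overlap for 5 of the 92 genes (5.43%, against 4.15% of all genes). Of these, 4 were higher in 1,25D cultures (Kcna1, Kcne4, Kcnb2 and Kcnab3, against 2.63% of all genes) and 1 was lower (Kcnd1, against 1.52% of all genes). All 3 replicate numbers gave a higher value in 1,25D cultures for 20 genes (21.7%, against 14.8% of all genes) and a lower one for 8 (8.7%, against 11% of all genes). A difference of at least 0.2 in every replicate number was found for 3 genes, Kcna1, Kcne4 and Kcnk1 (3.26%, against 1.01% of all genes), and in the lower direction for 0 (against 0.466% of all genes). These shares describe the 92 genes and were not tested.

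By the order of protein-coding genes in RefSeq, with noncoding genes left out, 10 pairs of channel genes are direct neighbours. Their control levels lay from 0.06 to 5.27 apart on the log2 scale. Kcnj10 lies next to Kcnj9 on chromosome 1, at control means of 12.11 and 6.85. Kcnj16 lies next to Kcnj2 on chromosome 11, at 9.30 and 6.26. On chromosome 6, Kcna1 stands between Kcna5 and Kcna6, and their differences were 0.46, 0.21 and -0.08. Kcnmb1 overlaps Kcnip1 on chromosome 11, with differences of -0.30 and -0.11.

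The 3 lists of genes that act beside potassium channels were read from the same fit. In either direction 0 of their 39 measured members passed (against 0.0251% of all genes without and 0.0903% with the block). At an unadjusted p under 0.05 there were 2 of the 39 without and 4 of the 39 with the block. Both shares were above those of all genes, 1.48% and 5.78%, and were not tested. The 23 partners not named Kcn had a median difference of 0.02. Lrrc38, an auxiliary subunit of large-conductance calcium-activated channels, was at 7.22, 7.17 and 6.77 in 1,25D cultures and at 6.70, 6.29 and 6.32 in control cultures. Its groups did not overlap, and its difference was 0.61 ± 0.16 (SE, adjusted p = 1.00 without and 0.24 with the block). Adam22, a receptor in the Kcna complex of axons, had -0.27 ± 0.21 and Dpp6, an auxiliary subunit of Kcnd channels, 0.23 ± 0.21 (SE). Of the hyperpolarisation-activated channels, which carry a mixed cation current, Hcn2 was at 7.96, 7.75 and 7.81 in 1,25D cultures and at 7.67, 7.48 and 7.47 in control cultures. The groups did not overlap, and the difference was 0.30 ± 0.11 (SE, adjusted p = 1.00 without and 0.57 with the block). Hcn3 and Hcn4 had 0.13 ± 0.10 and 0.08 ± 0.10 (SE). The 13 pump subunits and cotransporters had a median of 0.06. Slc12a4, a potassium-chloride cotransporter, had 0.39 ± 0.19, Atp1b1, a subunit of the sodium pump, -0.16 ± 0.12, and Slc12a5, the potassium-chloride cotransporter of neurons, 0.06 ± 0.11 (SE).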

How the data were processed

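The authors deposited 1 intensity per transcript cluster and array, which per the submitters' processing notes came from Affymetrix Expression Console with RMA normalisation. Versions, probe set level, filters and build were not given in the sources used here. These deposited intensities are on a linear scale, as their values show, and log2 was taken first. Genes were named from GEO's platform annotation. A gene with several rows was read from its brightest row on average (3 of the 92 genes had 2 rows). The fit was limma 3.58.1 in R 4.3.3 (lmFit, eBayes) over 19938 genes, with Benjamini-Hochberg adjustment and a threshold of 0.05. The fit was tested on simulated data.

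The labels call the replicates biological and do not say which animals or cultures they came from, and a p-value here reflects only how far these arrays scatter. Equal replicate numbers had correlated deviations from the group means (0.51, 0.65 and 0.46 across genes) and were therefore taken as pairs, which the data hint at and no label states. An exact permutation test of 3 arrays against 3 cannot give a p below 0.1. The number of arrays limits the precision. Members and lists were chosen with earlier results of these data known. Named genes were those with the smallest p, the highest control means, the brightest and most different of each subfamily, those with groups apart, and a fixed set. Kcnj13, Kcnj14, Kcna5, the named markers, the choroid plexus list and the neighbouring genes were chosen after their values were seen. Some genes of the fixed set are not reported here. The alternatives were other normalisations, a filter on the lowest 25% of genes, other row and variance choices, array weights, the replicate block and left-out arrays or pairs.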

Additional observations from a re-analysis of the deposited data

How the results depend on the processing

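The count of channel genes called was 0 in all 17 planned settings over named genes except the blocked fit without replicate 1, where it was 1 (Kcnk1, difference 0.87, adjusted p = 0.033). It was 0 over every row of the table and in both fits without the genes of identical replicate 1 values, which were added after seeing the data. With 1 array or pair left out it thus ran from 0 to 1. The count over all genes was 5 as reported, 18 with the replicate block and 22 with the block and without the genes of identical replicate 1 values. It ran from 0 to 2 with 1 array left out, and with the block it was 40, 3 and 45 without replicate 1, 2 or 3. The count in the related lists stayed at 0 in every setting. The median difference over the channel genes ran from 0.0042 (without 1,25D replicate 1) to 0.075 (without 1,25D replicate 3) with 1 array left out. It ran from -0.0019 (without replicate 2) to 0.049 (without replicate 3) with the block and 1 pair left out, and was -0.019 after quantile normalisation. Of 50 named genes, 21 kept their sign in every setting. Over all 50 the sign turned in 87 of 934 values, among them 4 for Kcnj10 and 3 for Kcnj16. The replicate block changed no call of a channel gene over all 3 pairs. Causes were not tested. Dim genes are limited by the compression of RMA.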
